A study of Homo sapiens with 2 samples.

Results

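The regions described here are peaks of chromatin immunoprecipitation followed by sequencing (ChIP-seq) that were centred near protein-coding genes but not on their outer ends. A peak of the antibody ab21061 was taken when a peak of the antibody sc8558 overlapped it by at least 1 bp and its midpoint lay more than 1 kb and up to 10 kb from the nearest end of a protein-coding gene, inside or outside that gene. Members were thus chosen by the presence of a peak in both lists, which is a measured value, and by position. The rule selected 993 of the 7687 ab21061 peaks, or 12.9% of them (exact 95% interval 12.2 to 13.7%). They were 20.3% of the 4896 ab21061 peaks that overlapped an sc8558 peak, called shared peaks below. The 993 peaks are called members. They met 1010 of the 7562 sc8558 peaks.

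Both libraries came from NB4, an established human acute promyelocytic leukemia line grown without any stated drug or genetic change, and each used an antibody said to recognise a different part of GFI1. There was 1 library per antibody and no replicate, so no p-value is given and every interval covers counting error only. Labels conflict in places: the protocol speaks of antibodies to the PML/RARα fusion protein, and the title of the sc8558 library reads GFI2, whereas both antibody labels read GFI1. The antibody labels were followed. Nothing in the labels says whether both libraries came from separate cultures. Read depth is unknown, since the files list peaks and no counts. Each peak carries a score, the authors' deposited value, which by the convention of MACS grows as the p-value falls. It serves here to rank and describe peaks within a list, and a threshold of 100 is applied to both lists. Whether that threshold is equally strict in both lists is unknown.

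GFI1 is a zinc-finger protein that binds DNA through a core of the letters AATC and represses transcription. Its short amino-terminal SNAG domain recruits the histone demethylase LSD1 with CoREST and histone deacetylases. In blood it is known for directing progenitors towards neutrophils and for restraining the monocyte programme. Regulatory DNA a few kb from a gene includes enhancers in first introns and upstream flanks, and also starts of shorter transcripts.

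A small group of members touched windows around annotated transcription starts even though their midpoints were over 1 kb from the outer gene ends. RefSeq start windows (250 bases before and 50 after a start, build GRCh38.p14) were touched by 51 members (5.14%), against 7.70% of all shared peaks. The latter share includes peaks up to 1 kb from gene ends, of which 57.1% touched a window. It was 3.87% over 10 kb from an end inside genes, 2.23% at 10 to 100 kb outside genes and 0.817% beyond. Of these 51, 37 touched a window of a protein-coding gene and 19 a window of a long noncoding RNA. In 29 members the window belonged to an inner start of a protein-coding gene, over 1 kb downstream of its outermost start. In all, 69 different windows were touched, of which 42 lay wholly under the ab21061 peak and 36 wholly under peaks of both antibodies. Windows can overlap each other, and the table of windows is not complete.

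The windows below, at inner starts of protein-coding genes, are the best-ranked ones that carry the letters TTGCNNAA, a short form of the site of C/EBP factors, the myeloid leucine-zipper activators. Capitals mark TTGCNNAA on either strand. The MAP2K5 window was chr15:67548844-67549143, plus strand, 6391 bp inside the outer start of this gene for a MAP kinase kinase. The IKZF1 window was chr7:50308450-50308749, plus strand, 5245 bp inside the start of the Ikaros gene, with 28 of its bases under the ab21061 peak and all 300 under the sc8558 peak. Its marked letters lie outside those 28 bases, and so under the sc8558 peak only. The NEU3 window was chr11:74988394-74988693, plus strand, 8129 bp inside the start of this sialidase gene. The RMDN2 window was chr2:37928509-37928808, plus strand, 7858 bp inside.
MAP2K5: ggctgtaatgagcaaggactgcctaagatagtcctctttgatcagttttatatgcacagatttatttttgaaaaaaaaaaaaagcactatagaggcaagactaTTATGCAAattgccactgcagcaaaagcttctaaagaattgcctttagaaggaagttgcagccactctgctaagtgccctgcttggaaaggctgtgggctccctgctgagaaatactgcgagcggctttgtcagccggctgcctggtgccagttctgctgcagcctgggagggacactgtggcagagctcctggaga
IKZF1: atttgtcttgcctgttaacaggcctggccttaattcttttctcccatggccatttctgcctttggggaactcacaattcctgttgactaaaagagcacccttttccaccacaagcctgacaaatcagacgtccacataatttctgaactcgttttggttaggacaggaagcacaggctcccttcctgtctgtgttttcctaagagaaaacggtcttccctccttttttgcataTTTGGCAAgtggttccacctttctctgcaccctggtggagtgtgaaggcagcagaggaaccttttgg
NEU3: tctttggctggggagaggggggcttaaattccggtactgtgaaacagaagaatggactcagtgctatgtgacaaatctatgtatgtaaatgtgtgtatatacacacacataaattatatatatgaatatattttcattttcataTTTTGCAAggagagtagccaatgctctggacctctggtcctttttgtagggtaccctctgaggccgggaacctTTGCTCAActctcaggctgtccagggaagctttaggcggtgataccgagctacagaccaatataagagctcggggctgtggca
RMDN2: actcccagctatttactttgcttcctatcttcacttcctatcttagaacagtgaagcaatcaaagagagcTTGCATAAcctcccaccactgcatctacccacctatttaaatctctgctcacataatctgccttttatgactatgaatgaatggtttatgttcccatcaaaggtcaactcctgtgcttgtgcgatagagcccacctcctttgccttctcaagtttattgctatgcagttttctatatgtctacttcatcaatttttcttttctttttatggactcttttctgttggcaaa

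The next windows are shown because the member was centred almost on an inner start, 49 bp from it in SPATS2L and 21 bp from it in UHRF1, a gene for an epigenetic regulator that keeps DNA methylation. Capitals mark AATC on either strand, the core read by GFI1. The SPATS2L window was chr2:200308700-200308999, plus strand. The UHRF1 window was chr19:4909251-4909550, plus strand.
SPATS2L: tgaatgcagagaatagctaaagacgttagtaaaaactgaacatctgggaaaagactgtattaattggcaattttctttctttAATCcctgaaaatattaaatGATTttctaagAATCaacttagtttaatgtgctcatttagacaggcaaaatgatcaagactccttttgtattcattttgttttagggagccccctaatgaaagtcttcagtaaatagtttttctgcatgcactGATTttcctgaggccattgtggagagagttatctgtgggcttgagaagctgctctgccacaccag
UHRF1: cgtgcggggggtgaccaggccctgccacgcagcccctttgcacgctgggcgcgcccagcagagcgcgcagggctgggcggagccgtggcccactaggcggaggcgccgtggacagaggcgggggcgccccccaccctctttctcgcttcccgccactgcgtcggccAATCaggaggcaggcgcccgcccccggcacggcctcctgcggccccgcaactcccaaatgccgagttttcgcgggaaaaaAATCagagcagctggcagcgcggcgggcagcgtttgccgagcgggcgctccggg

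Short motifs were counted on both strands in the 69 windows under members, in the 410 windows under other shared peaks and in all 34935 windows of the table. A window counted as under a member when the member touched it, and 42 of the 69 lay wholly under the ab21061 peak. A match in the others can thus lie outside the peak. TTGCNNAA was in 27.5% of the windows under members (19 of 69, exact 95% interval 17.5 to 39.6%). It was in 13.9% of windows under other shared peaks (10.7 to 17.6%) and in 10.5% of all windows. Counted by member, 17 of the 51 had it in a window they touched. A member can touch several windows, so this count cannot be set against the shares per window. The GFI1 core AATC was in 81.2% of windows under members (69.9 to 89.6%), 78.3% under other shared peaks and 69.0% of all windows. The longer AAATCA, which contains AATC, was in 20.3%, 23.2% and 13.2% in that order. Its interval under members, 11.6 to 31.7%, held the share of all windows. The median GC content of the windows was 54.0% under members, 59.7% under other shared peaks and 58.7% overall. The part of base composition in these shares was not tested.

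The remaining motifs, like AAATCA, were in shares of the member windows whose intervals held the share of all windows. These were TGTGGT for RUNX (15.9% against 13.1% of all windows), AGGAAG for ETS factors (42.0% against 33.7%), TGANTCA for AP-1 (7.25% against 7.72%) and CAGCTG, an E-box (13.0% against 17.9%). The others were AGATAA for GATA factors (13.0% against 10.4%), GGGCGG for KLF and SP factors (39.1% against 44.9%), AACTG for MYB (46.4% against 39.8%) and AGGTCA, the hexamer of nuclear receptors (13.0% against 13.8%). A match is a run of letters and does not show binding.

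Members were denser around gene starts than around gene finishes, beyond counting error, while the densities inside and outside genes were alike within it. RefSeq gave a strand for the nearest gene of 810 members. The nearest end was a gene start for 506 of them (62.5%, exact 95% interval 59.0 to 65.8%) and a gene finish for 304. The sequence within the same distances was divided almost evenly, 50.7% of it being nearest to a start. This gave 2.76 members per Mb near starts (2.52 to 3.01) and 1.71 per Mb near finishes (1.52 to 1.91), a ratio of 1.62. Among shared peaks up to 1 kb from an end, 85.3% were nearest to a start. The share was 59.3% at 10 to 100 kb outside genes (55.7 to 62.7%), an interval that overlaps that of members. It was 53.5% over 10 kb from an end inside genes and 32.5% beyond 100 kb. Inside protein-coding genes lay 575 members (57.9%, 54.8 to 61.0%), where 57.6% of the eligible sequence also lay, and 418 lay outside. The densities were 2.2 members per Mb inside genes and 2.17 per Mb outside them.

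Both sides of starts had higher densities than both sides of finishes, with intervals that did not overlap between starts and finishes. Downstream of starts, inside the gene, there were 282 members or 3.01 per Mb (2.67 to 3.38), and upstream of starts 224 members or 2.50 per Mb (2.18 to 2.85). Inside the gene before finishes there were 145, or 1.58 per Mb (1.33 to 1.86), and downstream of finishes 159, or 1.84 per Mb (1.57 to 2.15). Among members the highest density was 5.68 per Mb, between 1 and 2 kb inside starts, and it was 3.86 per Mb between 1 and 2 kb upstream. Farther than 4 kb from a start the densities ran between 1.73 and 2.94 per Mb on both sides. Scores did not follow the same order: median ab21061 scores were 110 and 112 inside and upstream of starts, and 117 and 112 inside and downstream of finishes.

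**Figure D1:**
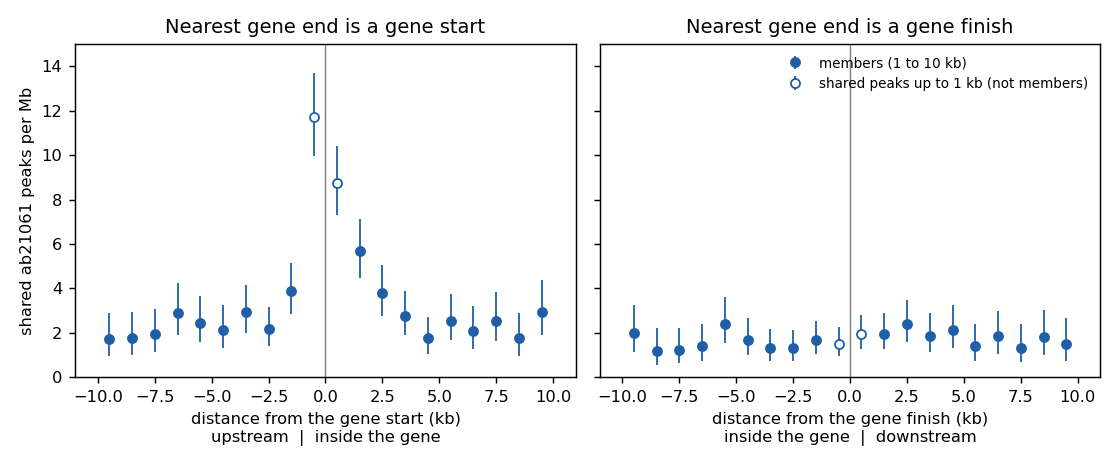
Density of shared ab21061 peaks (per Mb of sequence nearest to that kind of gene end) by distance in kb from the gene start (left) and gene finish (right), with exact Poisson 95% intervals. Filled points are members and open points are shared peaks up to 1 kb from an end. Member densities reach 5.68 per Mb between 1 and 2 kb inside starts, below the 11.7 per Mb of shared peaks in the kb upstream, and lie between 1.2 and 2.42 per Mb around finishes.

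Pooled over starts, finishes and genes without a strand, density was highest between 1 and 2 kb from an end, a pattern seen around starts and not around finishes. It was 3.01 members per Mb between 1 and 2 kb (197 members), 2.46 between 2 and 3 kb (148 members), 2.02 between 4 and 5 kb and 2.02 between 9 and 10 kb (80 members). The limits of the window cut through a continuous series of peaks. Just beyond 1 kb stood members near IFRD1 (1004 bp, scores 211.31 with ab21061 and 158.37 with sc8558), TCAIM (1010 bp, 153.41 with ab21061 and 117.92 with sc8558) and THADA (1012 bp, 119.25 with ab21061 and 174.77 with sc8558). Just short of 1 kb, and not members, stood peaks near GSTA4 (999 bp, 81.12 with ab21061 and 108.12 with sc8558) and LAMC1 (998 bp, 142.39 with ab21061 and 75.45 with sc8558). At the far limit the last members were near PPARD (9983 bp, 55.99 with ab21061 and 77.62 with sc8558), ZNF287 (9982 bp, 98.2 with ab21061 and 85.69 with sc8558) and OR2AG2 (9977 bp, 94.96 with ab21061 and 86.52 with sc8558). The first peaks beyond were near HS3ST3B1 (10004 bp, 122.67 with ab21061 and 118.22 with sc8558), ASCC2 (10026 bp, 120.43 with ab21061 and 96.37 with sc8558) and GARIN4 (10051 bp, 61.36 with ab21061 and 55.36 with sc8558).

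Of the 1501 ab21061 peaks in this window, 993 were overlapped by an sc8558 peak (66.2%, exact 95% interval 63.7 to 68.5%), against 63.7% of all ab21061 peaks. Overlap was part of the rule and is given as a description. In the window it was 33.5% for scores of 50 to 60, 69.3% for 80 to 100 and 94.2% for 150 to 200, and all 218 peaks of 200 or more were overlapped. Member scores had a median of 110 in the ab21061 list (quartiles 74.1 and 179) and 108 in the sc8558 list (76.2 and 176). For 428 members both scores reached 100 (43.1%, 40.0 to 46.2%), against 41.6% of all shared peaks.

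Members lay within the range of the other shared peaks in score, and their median width stood between that at gene ends and those farther away. The median ab21061 score was 110 in members, 114 in shared peaks at gene ends, 111 in those over 10 kb from an end inside genes, 108 at 10 to 100 kb outside genes and 101 beyond. The median ab21061 width was 897 bp in members, against 981 bp at gene ends, 849 bp deep inside genes, 871 bp at 10 to 100 kb and 714 bp beyond. In the sc8558 list the widths were 854 bp in members, against 960, 801, 830 and 690 bp in the same order. Quartiles overlapped between members and each of these classes. The widest member, of 7610 bp, lay near DHX34 on chromosome 19 with scores of 358.45 with ab21061 and 442.35 with sc8558.

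**Figure D2:**
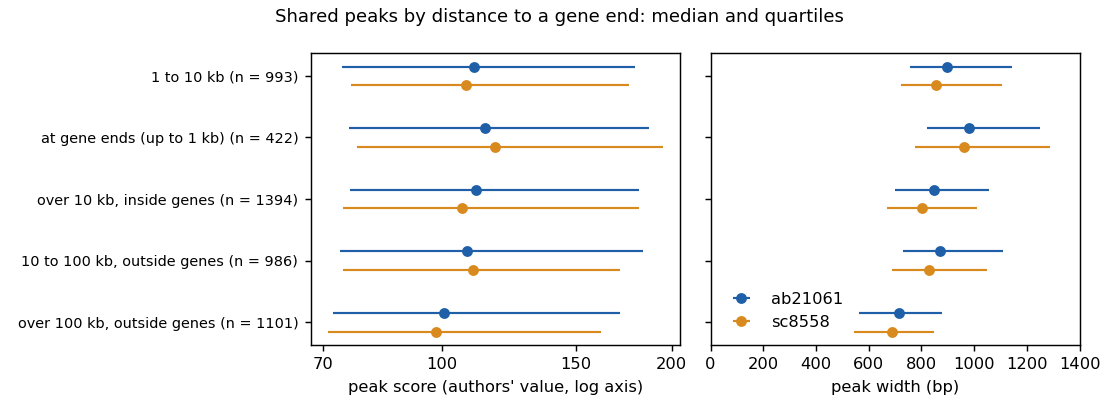
Peak score (log axis, authors' values) and peak width in bp of shared peaks by distance to a gene end, with the median as a point and quartiles as bars for ab21061 (blue) and sc8558 (orange). Members (top line, 1 to 10 kb) have median widths of 897 bp (ab21061) and 854 bp (sc8558), between those at gene ends and those far from genes, and scores overlap across all classes.

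Overlap was part of the rule, which limits how far apart the centres of the overlapping peaks can lie. The median offset between the midpoints of the ab21061 and sc8558 peaks was 70 bp in members and 67 bp in the other shared peaks, and 640 members (64.5%) were offset by at most 100 bp. The sc8558 peak with the highest score covered a median of 89.3% of the member. A single sc8558 peak met 975 members and 18 met more than 1. Across the 993 members the 2 scores had a Spearman correlation of 0.719, and 0.706 across the other shared peaks. These values describe regions that share libraries, read mapping and peak calling, and regions are not replicates.

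The members ranking highest in both lists were near genes of varied function. The first lay on chromosome 5 from 80650423 to 80652503, 3.19 kb from the start of MSH3, a mismatch repair gene, but inside a neighbouring gene. Its scores were 1955.81 with ab21061 and 1378.93 with sc8558. It covered all but the first bases of MTRNR2L2, a nuclear pseudogene resembling the mitochondrial 16S ribosomal RNA gene. The second lay inside KCTD12, an auxiliary subunit gene of GABA-B receptors, with scores of 1470.55 with ab21061 and 1312.39 with sc8558. The third lay 9.13 kb inside the start of RBM47, which encodes an RNA-binding protein, with 1559.26 with ab21061 and 1280.49 with sc8558. All 3 were chosen by the worse of their ranks in the lists. Their high scores with both antibodies thus follow from that choice and are no separate result.

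The other 7 of the first 10 also lay near genes of different kinds. The member in LTA4H, whose enzyme makes the neutrophil attractant leukotriene B4, scored 1146.84 with ab21061 and 1176.02 with sc8558, on chromosome 12 from 96035513 to 96038317. The member in IFIT3, an interferon-induced antiviral gene, scored 776.7 with ab21061 and 895.56 with sc8558. The member in VNN2, a vanin gene expressed on neutrophils, scored 760.88 with ab21061 and 771.49 with sc8558. Members in MAP3K20, a stress-activated kinase gene (1064.01 with ab21061 and 969.12 with sc8558), in RASSF8 (1214.48 with ab21061 and 1050.75 with sc8558) and in UBAP1L (1449.39 with ab21061 and 1187 with sc8558) and one outside NELL2 (746.19 with ab21061 and 732.39 with sc8558) completed the 10. All but 2 of the 10, those of MSH3 and NELL2, lay inside the gene whose end was nearest.

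**Figure D3:**
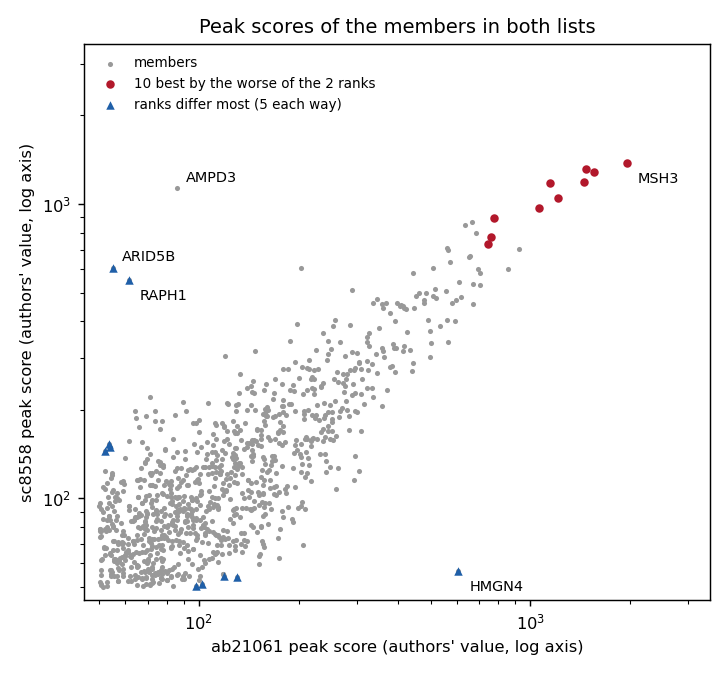
Score of the ab21061 peak against the score of its best sc8558 partner for the 993 members (both axes logarithmic, authors' values). Red points are the 10 members best by the worse of the 2 ranks, blue triangles the 5 in each direction whose ranks differ most. Most points follow a diagonal band, and ARID5B, RAPH1, AMPD3 and HMGN4 lie far from it.

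Ranks within the lists, as percentiles, differed by at most 10 points for 489 members (49.2%) and by over 50 points for 41. Of these 41, 13 stood higher with ab21061 and 28 with sc8558. The widest gap in favour of ab21061 was on chromosome 6 from 26553564 to 26556600, 8.15 kb from the finish of HMGN4. There a single ab21061 peak of 3037 bp with a score of 607.38 met an sc8558 peak of 559 bp with a score of 56.44. That member touched 4 transfer RNA genes, TRA-CGC1-1, TRI-AAT5-1, TRP-AGG2-2 and TRK-CTT2-4. Others in this direction were near PGCKA1 (130.42 with ab21061 and 53.82 with sc8558), MSL3B (101.88 with ab21061 and 50.94 with sc8558) and YWHAG (118.72 with ab21061 and 54.36 with sc8558).

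The widest gap in favour of sc8558 was in ARID5B, a chromatin regulator gene linked to leukemia risk. Its member from 61902018 to 61903598 on chromosome 10 scored 54.89 with ab21061 and met an sc8558 peak of 3257 bp scoring 606.22. A second ARID5B member, from 61897698 to 61899653 with an ab21061 score of 203.2, touched the same sc8558 peak by 1 bp, the least overlap of any member. Of the other 4, RAPH1 had scores of 61.33 with ab21061 and 551.63 with sc8558, again with a wider sc8558 peak (1730 bp) than ab21061 peak (587 bp). The last 3 were near KANK1 (51.95 with ab21061 and 144.76 with sc8558), PDIK1L (53.68 with ab21061 and 152.26 with sc8558) and NFE2L3 (53.82 with ab21061 and 149.05 with sc8558). With no replicate, a gap between the lists cannot be told apart from a difference between 2 preparations.

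The shares of genes with members were above that of all protein-coding genes, beyond counting error, in lists of myeloid transcription factors, adhesion genes and cytokine receptors, here and in all 9 alternatives run for lists. For feedback regulators this held here but not in 5 of the 9. A gene was counted when its end was the nearest to a member, which held for 918 of 20037 protein-coding genes (4.58%). Counting only members with both scores at 100 or above, it held for 417 genes (2.08%). Each gene count below is a description of these libraries set beside that share, with no test of the list. The lists were written with earlier results on these peaks known, so a raised share is not an independent result. The alternatives reuse the same peaks and lists and add no independent support. Sequence that could give a member was 22.7 kb per gene over all genes.

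Transcription factors that set the fate of myeloid and progenitor cells had members at 12 of 50 genes (24.0%, exact 95% interval 13.1 to 38.2%, against 4.58% of all genes). With 27.6 kb of sequence per gene the list held 10.2 members per Mb, against 2.18 overall. With both scores at 100 or above there were 7 genes (14%, against 2.08%). MYB, which sustains progenitor growth, had the highest scores, 566.47 with ab21061 and 699.07 with sc8558, 2.12 kb inside its start. ID1, an inhibitor of helix-loop-helix factors, had 486.25 with ab21061 and 499.69 with sc8558, 2.30 kb upstream of its start on chromosome 20. IRF5 had 257.03 with ab21061 and 402.24 with sc8558, IKZF1 225.27 with ab21061 and 318.58 with sc8558, and HHEX, a homeobox gene of progenitors, 201.27 with ab21061 and 140.83 with sc8558. CEBPG had 136.72 with ab21061 and 100.44 with sc8558. ELF1 (98.66 with ab21061 and 97.98 with sc8558), ETS2 (86.99 with ab21061 and 95.25 with sc8558) and IRF4 (67.73 with ab21061 and 80.25 with sc8558) had lower scores, and ZEB2, CEBPE and GFI1 itself completed the list.

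GFI1 held a pair of members inside the gene on chromosome 1, at 3.50 and 6.80 kb from its finish. The first, from 92476028 to 92477057, had 152.07 in the ab21061 list and 94.84 in the sc8558 list. The second, from 92479374 to 92480302, had scores of 54.2 with ab21061 and 55 with sc8558, near the lower limit of both lists. ZEB2, a zinc-finger repressor gene, also had 2 members, one upstream of its start (117.43 with ab21061 and 135.73 with sc8558) and one inside it (83.71 with ab21061 and 84.55 with sc8558). Both genes also had a shared peak within 1 kb of an end. CEBPE, the C/EBP factor of late granulocyte maturation, had 88.03 with ab21061 and 113.3 with sc8558 at 4.08 kb beyond its finish. GFI1B, PML and RARA had 0 members.

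**Figure D4:**
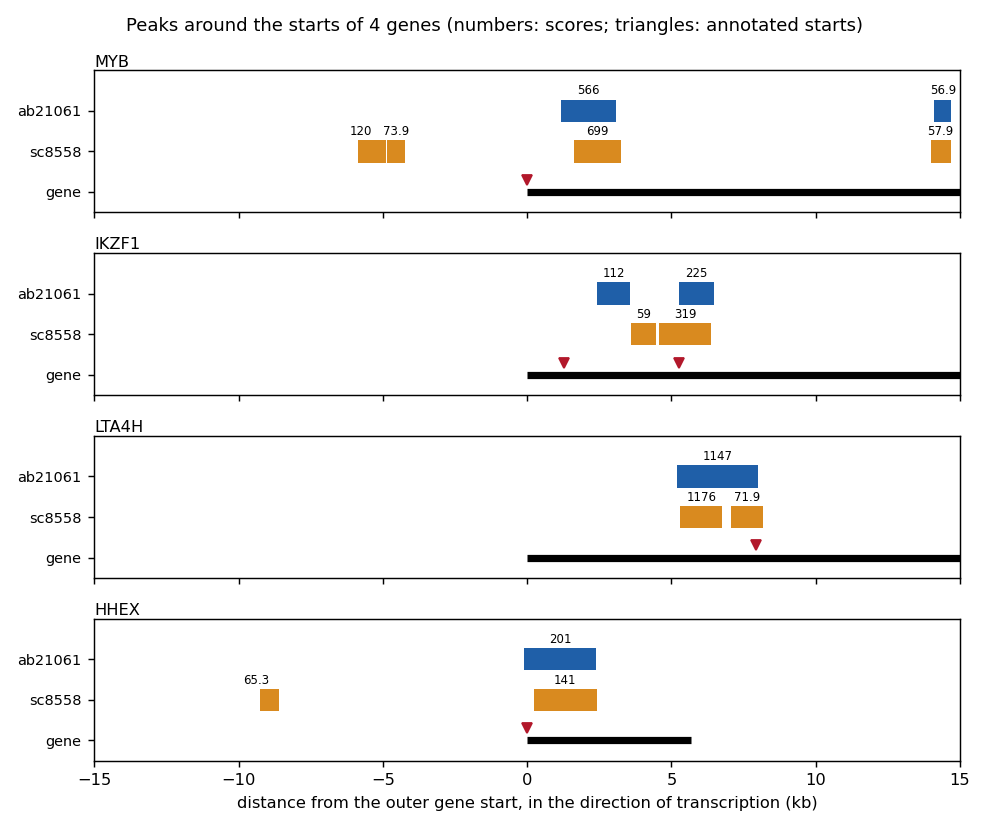
Peaks around the starts of MYB, IKZF1, LTA4H and HHEX by distance in kb from the outer gene start along transcription, with ab21061 peaks above sc8558 peaks, scores as numbers, annotated starts of the RefSeq window table as triangles and the gene as a black line. In IKZF1 and LTA4H the member lies over or beside an inner start, 5.25 and 7.93 kb from the outer one. In MYB it lies inside the gene, and in HHEX it reaches across the outer start.

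The early-response factors had 4 of 37 genes with members (10.8%, 3.03 to 25.4%), an interval that holds the 4.58% of all genes. KLF6 scored 395.88 with ab21061 and 461.28 with sc8558 at 2 kb inside its start. FOS, which encodes a component of AP-1, had one member beyond its finish (211.5 with ab21061 and 121.58 with sc8558) and one upstream of its start (67.28 with ab21061 and 96.53 with sc8558). FOSL2 (70.29 with ab21061 and 61.03 with sc8558) and JUN (64.88 with ab21061 and 58.18 with sc8558) had low scores, that of JUN at 1055 bp from its start and so close to the inner limit. Of the 30 corepressor partners of GFI1, 2 had members (6.67%, 0.818 to 22.1%), and this interval also holds 4.58%. They were SIN3A with 105.99 with ab21061 and 141.56 with sc8558, and NCOR1 with 68.64 with ab21061 and 83.72 with sc8558.

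Of the 19 lists, adhesion and leukocyte cytoskeleton genes had the highest share, 11 of 40 (27.5%, 14.6 to 43.9%), or 12.9 members per Mb. PECAM1, an adhesion molecule of leukocytes and endothelium, scored 304.77 with ab21061 and 291.01 with sc8558. LCP1, which encodes the leukocyte actin-bundling protein plastin, had members of 236.44 with ab21061 and 365.07 with sc8558 and of 77.36 with ab21061 and 61.11 with sc8558, both inside its start. ITGA6 had 2 beyond its finish, with 278.07 with ab21061 and 214.61 with sc8558 and with 144.99 with ab21061 and 133.36 with sc8558. LPXN, for the paxillin relative leupaxin, had 213.55 with ab21061 and 199.94 with sc8558. ITGA4 (114.33 with ab21061 and 93.64 with sc8558), ITGAM (157.3 with ab21061 and 93.51 with sc8558), ITGAL (80.62 with ab21061 and 71.85 with sc8558) and ITGB2 (61.4 with ab21061 and 94.09 with sc8558) encode integrin subunits, ITGAM and ITGB2 together the Mac-1 receptor of neutrophils and monocytes. SELPLG, the P-selectin ligand gene (107.51 with ab21061 and 61.96 with sc8558), RHOH (82.9 with ab21061 and 68.81 with sc8558, and 76.78 with ab21061 and 66.9 with sc8558) and EVI2B (64.55 with ab21061 and 186.87 with sc8558) made up the rest. With both scores at 100 or above the count was 4 of 40 (10.0%).

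Cytokine and growth factor receptors had members at 7 of 32 genes (21.9%, 9.28 to 40.0%), and 4 of 32 with both scores at 100 or above. Measuring from ends of all gene types also gave 4 of 32 (12.5%, 3.51 to 29.0%), against 3.45% of all genes in that setting. IL18R1, a receptor chain for interleukin 18, scored 300.45 with ab21061 and 311.37 with sc8558, 2.25 kb inside its start. IFNAR1, for a chain of the type I interferon receptor, had 170.04 with ab21061 and 254.49 with sc8558, and the partner gene IFNAR2 64.17 with ab21061 and 53.12 with sc8558. FLT3, a receptor kinase gene often mutated in myeloid leukemia, had 114.69 with ab21061 and 127.95 with sc8558 at 6.41 kb upstream of its start. CSF1R, for the receptor of macrophage growth factor, had 67.43 with ab21061 and 96.42 with sc8558. TNFRSF10A (116.81 with ab21061 and 129.35 with sc8558) encodes a TRAIL receptor and TNFRSF1B (55.86 with ab21061 and 61.97 with sc8558) a TNF receptor.

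Feedback regulators of cytokine and kinase signalling had 5 of 30 genes (16.7%, 5.64 to 34.7%). DUSP1, a MAP kinase phosphatase gene, scored 263.52 with ab21061 and 247.95 with sc8558 beyond its finish. DUSP10, another such gene, had 2 members, with 178.66 with ab21061 and 128.54 with sc8558 and with 123.55 with ab21061 and 64.88 with sc8558. INPP5D, for the lipid phosphatase SHIP1, had 111.45 with ab21061 and 75.5 with sc8558. SH2B3 had 71.84 with ab21061 and 66.88 with sc8558, and DUSP4 52.18 with ab21061 and 78.71 with sc8558. With both scores at 100 or above there were 2 of 30 (6.67%, 0.818 to 22.1%), against 2.08% of all genes. Measuring from ends of all gene types also gave 2 of 30, against 3.45% of all genes in that setting. Both shares of all genes lie inside the interval, so the list did not stand above all genes in either setting.

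For the next lists the interval held the share of all genes when every member was counted. With both scores at 100 or above, that of apoptosis genes lay just above it, at 3 of 30 (10%, 2.11 to 26.5%, against 2.08%). Neutrophil granule and oxidase genes had 3 of 36 (8.33%, 1.75 to 22.5%), each with both scores over 100: FCN1, for ficolin-1 (425.24 with ab21061 and 367.95 with sc8558), SERPINB1, an inhibitor of neutrophil proteases (218.87 with ab21061 and 257.44 with sc8558), and MPO, for myeloperoxidase (166.44 with ab21061 and 139.59 with sc8558). Monocyte, macrophage and innate sensing genes had 4 of 38 (10.5%, 2.94 to 24.8%): FCER1G (174.65 with ab21061 and 192.76 with sc8558) and FCGR2A (185.77 with ab21061 and 93.25 with sc8558), which encode parts of Fc receptors, FPR1 (129.08 with ab21061 and 92.32 with sc8558), for the formyl peptide receptor, and the chemokine receptor gene CXCR4 (78.36 with ab21061 and 110.85 with sc8558). NF-kB genes had 2 of 25, REL with 404.46 with ab21061 and 448.4 with sc8558 and TRAF1 with 82.09 with ab21061 and 100.92 with sc8558. Apoptosis genes had 3 of 30, BCL2L1 (129.18 with ab21061 and 197.74 with sc8558), BCL2L11 (125.03 with ab21061 and 122.43 with sc8558) and TNFSF10, the TRAIL gene (184.52 with ab21061 and 109.64 with sc8558, and 58.87 with ab21061 and 54.21 with sc8558). Retinoid and PML-RARA genes had 3 of 31, the coactivator gene NCOA3 (92.67 with ab21061 and 124.85 with sc8558), the receptor gene RARB (57.53 with ab21061 and 98.83 with sc8558) and DHRS9 (54.42 with ab21061 and 57.07 with sc8558), none with both scores at 100 or above.

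Lists of other lineages had no member. The counts were 0 of 30 lymphoid genes, 0 of 25 erythroid and megakaryocytic genes and 0 of 25 liver and neuron genes. The exact 95% upper limits are 11.6% for the lymphoid list and 13.7% for each of the others, and the limit of 3 counts is 10.0% and 12%. These limits lie above 4.58%, so lists of this size cannot show a share below that of all genes. Olfactory receptor genes had 5 of 392 (1.28%, 0.415 to 2.95%) and ZNF genes 14 of 509 (2.75%, 1.51 to 4.57%), with 0.749 and 1.15 members per Mb against 2.18 overall. Histone genes had 4 of 69, with H4C14 highest (369.21 with ab21061 and 232.94 with sc8558). Their share was 5.80% (1.60 to 14.2%), and they held 11.1 members per Mb. Counting every gene with an end within 10 kb of a member gave 12 of 69 histone genes (17.4%, 9.32 to 28.4%), against 5.80% of all genes. In that setting a single member can count for several neighbouring genes, so these genes are not independent. Ribosomal protein genes had 3 of 82, with RPL23 highest (499.23 with ab21061 and 302.67 with sc8558), and cell cycle genes had 2 of 35, CDC25B (191.84 with ab21061 and 242.65 with sc8558) and CCNE2 (136.45 with ab21061 and 72.03 with sc8558). Histone genes stand close together, with 5.23 kb of eligible sequence per gene.

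**Figure D5:**
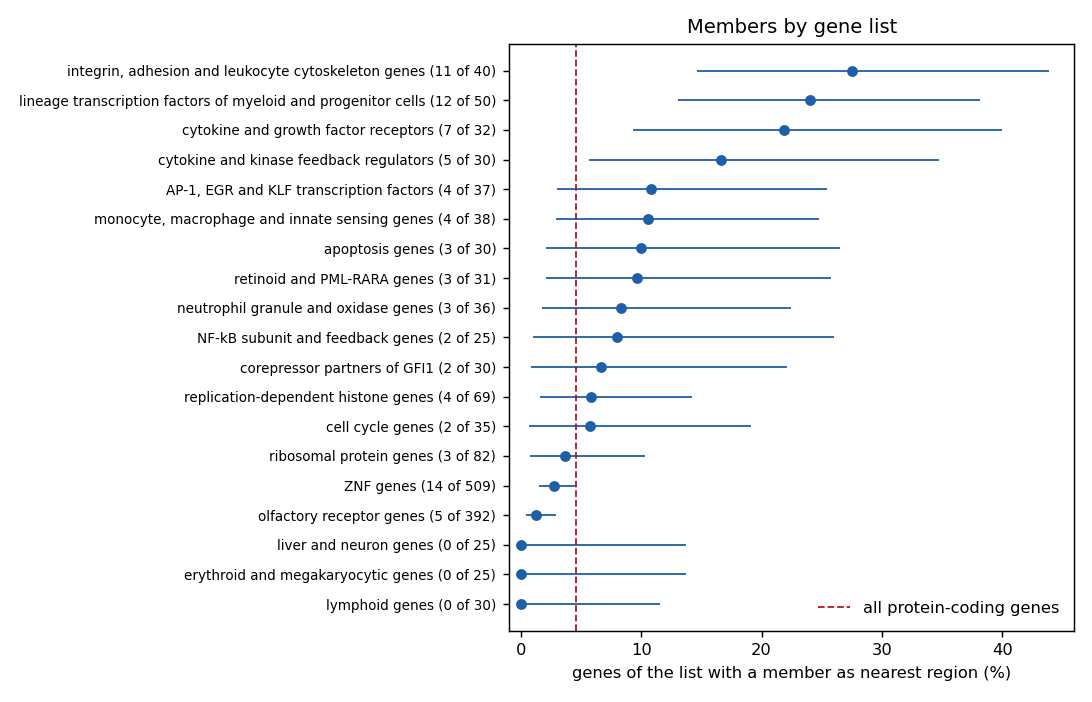
Percent of the genes of each list that had a member as nearest region, with exact 95% intervals, and the share of all protein-coding genes (4.58%) as a dashed line. Adhesion genes (27.5%), myeloid transcription factors (24.0%), cytokine receptors (21.9%) and feedback regulators (16.7%) have intervals wholly above the line. The intervals of olfactory receptor genes and ZNF genes lie below it, that of ZNF genes only just, with an upper limit of 4.57%. The lists were written with earlier results on these peaks known.

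Most genes with members had 1 member, 852 of 918, and 58 had 2. The 8 genes with more were PIWIL4 with 4 and AMIGO2, ANXA8L1, HDC, KANK1, PLD1, TCF12 and TPT1 with 3 each. PLD1, for phospholipase D1, had 510.16 with ab21061 and 607.03 with sc8558 at 3.53 kb upstream of its start, and 77.19 with ab21061 and 182.38 with sc8558 and 71.87 with ab21061 and 119.45 with sc8558 for the others. HDC, for histidine decarboxylase, the enzyme that makes histamine, had 122.43 with ab21061 and 208.57 with sc8558, 106.17 with ab21061 and 120.39 with sc8558, and 75.97 with ab21061 and 69.03 with sc8558, all inside its start. TCF12, for an E-protein, had 259.4 with ab21061 and 107.21 with sc8558, 194.61 with ab21061 and 109.14 with sc8558, and 50.55 with ab21061 and 74.31 with sc8558, all inside its finish. AMIGO2 had 113.76 with ab21061 and 74.68 with sc8558, 71.89 with ab21061 and 70.62 with sc8558, and 55.13 with ab21061 and 80.31 with sc8558. The PIWIL4 members all scored below 100 with sc8558. ANXA8L1 lies in a duplicated part of chromosome 10 with near-identical copies, so its peaks are uncertain, and 2 of them met the same sc8558 peak.

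Some genes with members also had shared peaks elsewhere. A shared peak within 1 kb of an end was present at 47 of 918 (5.12%), against 2.08% of all protein-coding genes. A shared peak over 10 kb inside the gene was present at 103 (11.2%), against 5.07%. Genes with members were longer, with a median of 40.8 kb against 24.1 kb, and the part of length in these shares was not tested. Another shared peak lay within 10 kb for 157 members (15.8%, 13.6 to 18.2%), against 20.5% of all shared peaks. The latter share includes peaks over 100 kb from an end outside genes, of which 33.1% had such a neighbour. The share was 12.6% at gene ends, 17.4% at 10 to 100 kb outside genes and 18.6% over 10 kb from an end inside genes. The intervals at gene ends, at 10 to 100 kb and deep inside genes each overlap that of members.

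Some members covered genes for small RNAs or copies of mitochondrial genes. The 5 members over transfer RNA genes (0.504%) touched 10 of them. The share was 0.474% at gene ends, 0.913% at 10 to 100 kb outside genes and 0 in the other classes. Their median score was 607 with ab21061 and 122 with sc8558. These medians come from different members, near HMGN4 (607.38 with ab21061 and 56.44 with sc8558) and SCAND3 (171.4 with ab21061 and 121.84 with sc8558). Another of the 5 lay at ANG, an RNase gene, on chromosome 14 from 20681351 to 20684439. It covered TRT-TGT5-1, TRY-GTA5-5 and TRP-TGG3-2, with scores of 924.35 with ab21061 and 701.25 with sc8558. The LTA4H member covered TRD-GTC2-8. One microRNA hairpin lay under a member, that of MIR4485 near AMPD3 on chromosome 11, inside the mitochondrial copy MTRNR2L8. The member scored 85.6 with ab21061 and 1136.95 with sc8558, although both peaks were about 3 kb wide (3016 bp with ab21061 and 3000 bp with sc8558) and their centres 26 bp apart. The mature microRNA, from chr11:10508277-10508296 on the minus strand, is shown because it is the sole microRNA under a member, with the seed in capitals.
hsa-miR-4485-3p: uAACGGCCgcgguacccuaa

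Without the members over small RNA genes or mitochondrial copies 983 remained, with median scores of 110 in the ab21061 list and 107 in the sc8558 list. Long noncoding RNA genes were overlapped by 126 members (12.7%), against 20.6% of shared peaks at gene ends, 10.0% deep inside genes and 27.1% at 10 to 100 kb.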

How the data were processed

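ChIP-seq peaks of NB4 cells were taken as deposited, 1 list for each of 2 antibodies. Per the submitters' processing notes, Bowtie2 2.2.9, MACS 1.4.2 and build hg38 were used, while options, read filters and the control sample are not given in the sources used. The score column is the authors' value per peak as deposited, and peaks were listed per library. Starts were converted to 1-based positions. Distances run from the peak midpoint to the nearest end of 20037 protein-coding genes (RefSeq, GRCh38.p14), of which 15842 had a strand in the RefSeq table of start windows. Each base was assigned to its nearest gene end to obtain sequence lengths for densities. Where a member met several sc8558 peaks, the highest score was used. Intervals are exact Clopper-Pearson (shares) or exact Poisson (densities) at 95%. The scripts were tested on simulated peaks.

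The members, 19 gene lists, 11 motifs and rules were chosen with earlier results on these data known. Named members were the 10 best by the worse of the 2 ranks, the 5 with the widest rank gap each way, those nearest the limits, genes with 3 or more members, up to 5 per list, GFI1, GFI1B, PML and RARA, and those over start windows or microRNA hairpins (SPATS2L, UHRF1, the 4 windows with TTGCNNAA, the widest member, those over transfer RNA genes and list members beyond 5 were chosen after their values were seen). Some peaks that this rule names are not reported here. Alternatives covered overlap, score, distance, gene type, single pairs and peak position. Calculations ran in Python 3.11.15 with scipy 1.17.1, pandas 2.3.3 and numpy 2.4.6, and plots were drawn with matplotlib 3.10.9.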

Additional observations from a re-analysis of the deposited data

How the results depend on the processing

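Of the members with a known strand, the share near gene starts stayed between 60.9 and 65.3% in every alternative except ends of genes of all types, where it was 56.6%. Taking ends of all gene types gave 1652 members and a share inside protein-coding genes of 48.4%. Keeping members with both scores at 100 or above gave 428 members at 417 genes, since fewer peaks enter. Their median width was 1051 bp and the rank correlation of scores 0.752, and the cause of these shifts was not tested. An outer limit of 5 kb gave 575 members at 554 genes, since less sequence enters. Restricting to genes of at least 20 kb, an alternative chosen after seeing the data, gave a share inside genes of 63.2%. Leaving out members over small RNA genes or mitochondrial copies, also chosen after seeing the data, gave 983 members, 62.5% of them near starts. Over the alternatives run for gene lists, the genes with members numbered 7 to 12 among myeloid transcription factors, 4 to 13 among adhesion genes, 4 to 8 among cytokine receptors and 2 to 6 among feedback regulators, while the share of all genes ran between 2.08 and 5.80%. The exact interval lay above that share in all 9 alternatives for the first 3 lists and in 4 of 9 for feedback regulators. These alternatives reuse the same peaks and the same lists, so they are not independent of the main count. No paired analysis was possible because each antibody has 1 library. Unknown depth limits any reading of low-scoring peaks.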
